A study of Drosophila melanogaster with 12 samples.

Results

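The genes described here belong to the main families of secreted digestive enzymes of the *Drosophila melanogaster* larva. These are the Jonah serine proteases, the trypsins, the maltases, the amylases and the lysozymes. The genes were matched by symbol. The match took every gene named Jon with a number, a Greek letter followed by Try, Mal-A, Mal-B, Amy, or Lys with a capital letter. These families were chosen with earlier results of these data known, so shares of members beside those of all genes are description only. Of the 24134 genes listed, 47 matched. The match included *LysRS*, which encodes a lysyl-tRNA synthetase and not a lysozyme, and this gene was counted in the 47 and left out of the families. The remaining 46 genes were 16 Jonah proteases, 11 trypsins, 8 maltases A, 2 maltases B, 2 amylases and 7 lysozymes. Of these, 44 passed a filter on low values. The exceptions were the lysozyme genes *LysP* and *LysX*, whose values lay between −2.19 and −0.14 on the log2 scale in all 12 samples.

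The larval midgut secretes enzymes of these families into the gut lumen, which need not hold for every gene listed here. Amylases cut starch into short sugars, maltases release glucose from those sugars, trypsins and Jonah proteases cut dietary protein, and gut lysozymes digest the cell walls of ingested bacteria. In *Drosophila*, dietary sugar is known to lower the expression of amylase and maltase genes through the sugar-sensing transcription factor Mondo and its partner Bigmax, their target *sugarbabe* and the Activin-type ligand *dawdle*, which signals through the receptor Baboon and the transcription factor Smox.

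RNA was sequenced from *dERR1/2* mutants, which carry a pair of different mutant alleles of the gene for the *Drosophila* estrogen-related receptor (*ERR*), and from *dERR1/+* heterozygous controls, which carry the *dERR1* allele over a normal copy. Both genotypes were L2 larvae in a *w1118* background, raised for 60 h at 25 °C on molasses agar with yeast, and each was sampled as whole larvae and as dissected fat bodies with 3 samples per group. That age is the one the labels give for all samples. The study's methods give another age and RNA extraction kit for the fat bodies, so in comparisons between the tissues these differences and the tissue cannot be told apart. The receptor was mutated in every tissue. Both genotypes came from *dERR1* mothers, but mutants had *dERR2* fathers and controls had *w1118* fathers. Loss of the receptor and the rest of those fathers' chromosomes, the one that carries *dERR2* included, therefore cannot be told apart. The study's methods call the fat body samples technical replicates, and no source says that the whole larvae samples came from separate crosses, so p-values measure only the spread between these samples.

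The values are regularized log2 values (rlog), which are counts scaled for library size and shrunk toward each gene's mean, so a difference of 1 is a 2-fold change before shrinkage. The median over the 10069 genes tested lay between 7.95 and 7.997 in whole larvae and between 7.04 and 7.16 in fat bodies. *ERR* itself lay between 8.16 and 8.39 in control whole larvae, between 8.01 and 8.28 in mutant whole larvae, between 8.29 and 9.24 in control fat bodies and between 8.25 and 8.40 in mutant fat bodies. The genotypes overlapped in both tissues, so the level of *ERR* does not check the labels. The larval serum protein gene *Lsp1gamma*, a storage protein of the fat body, was near 11.01 in control whole larvae and near −0.04 in mutant whole larvae, and control fat body sample 7 stood apart at 15.26 against 7.60 and 7.77 in samples 5 and 6. Of 8 fat body markers, *Lsp2*, *Fbp1* and *Fbp2* did not pass the filter in any group, while *apolpp*, the lipophorin precursor made by the fat body, was the highest at 18.66 in control fat bodies and 16.35 in control whole larvae.

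Most digestive enzyme genes had far higher values in whole larvae than in dissected fat bodies. The control means of the 44 members ran from 5.36 to 15.04 in whole larvae and from −0.80 to 8.48 in fat bodies. Of the 44, 42 passed the filter through whole larvae alone, the tissue where they were high, so the filter in part fixed the direction of their difference and no count of calls is read from it. The largest difference was that of *Jon99Ciii*, a Jonah protease, at 12.97 (SE 0.57). The member with lower values in whole larvae was *Mal-B2*, a maltase of the B group, which was 0.99 lower in control whole larvae than in control fat bodies (SE 0.14, adjusted p = 5.9e-05; 24.9% of all genes were lower). A gene lower in the fat body than in the whole larva may differ in the number of expressing cells or in RNA per cell, and bulk samples cannot tell these apart.

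**Figure D1:**
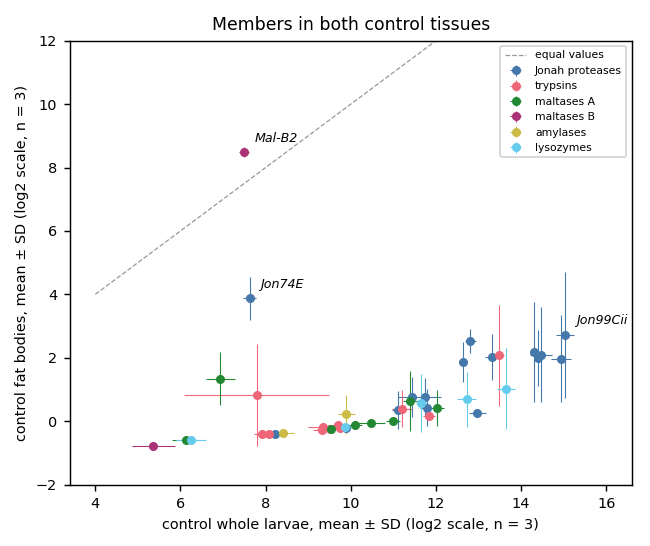
Mean rlog value (log2 scale) of each of the 44 members in control whole larvae (horizontal axis) and control fat bodies (vertical axis), with bars for the SD of 3 samples. *Mal-B2* is the only point above the line of equal values, and *Jon74E* lies at 3.87 in fat bodies while most others lie near 0.

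Per kilobase of exon, the order of levels in control whole larvae was led by proteases and a lysozyme. *Jon99Cii* came first at a level of 15.25 (log2 value per kb), and *LysD*, *Jon25Biii*, *Jon99Ciii*, *Jon99Fii* and *Jon65Aiv* followed between 14.45 and 14.70. *deltaTry* was the highest trypsin at 13.79, *Mal-A3* the highest maltase at 11.18 and *Amy-p* the higher amylase at 9.16. The lowest level was that of *Mal-B1* at 4.50. Of the 43 neighbouring pairs in this order, 13 differed by more than the larger of their SDs, so most neighbours were not separated by their spread. All 44 lay above the filter in control whole larvae, with the lowest mean at 5.36, for *Mal-B1*.

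In mutant whole larvae, 3 of the 44 members were higher and 1 was lower than in controls. This compares with 0.725% of all 10069 genes higher and 2.56% lower at the same threshold (adjusted p under 0.05), and 6.82% of the members higher. As the families were chosen with earlier results known, these shares are not read as a result. The higher genes were *epsilonTry*, a trypsin, and *Mal-A6* and *Mal-A8*, both maltases, and the lower gene was *Jon74E*, a Jonah protease. None of the 44 passed the test against a log2 fold change of 1, which 0.119% of all genes passed as higher and 1.11% as lower, and 0 of the 44 passed it at an unadjusted p under 0.05. The fit of all 12 samples pools the spread of both tissues, including fat body values near the floor. Its SEs and adjusted p-values therefore do not measure the spread in whole larvae alone, and which members passed depended on this pooling. When whole larvae were fitted without the fat bodies, 8 members were higher and 1 was lower, against 2.1% and 4.96% of all genes. The 5 added genes were *betaTry*, *alphaTry*, *Jon99Fi*, *Mal-A1* and *LysC*. Leaving out whole larvae samples 1, 2 or 3 of the controls, or sample 1 or 2 of the mutants, left 0 members higher in the fit of all 12 samples, whereas leaving out mutant sample 3 gave 4. Over these fits the log2 fold change of *epsilonTry* stayed between 1.25 and 1.52, that of *Mal-A6* between 0.82 and 1.24 and that of *Mal-A8* between 0.84 and 1.24, with adjusted p up to 0.126, 0.167 and 0.187. In the fit of all samples, 9 members were higher (20.5%, against 4.43% of all genes) and 1 was lower (2.27%, against 6.66%) at an unadjusted p under 0.05. Without the fat bodies these fits gave 5, 3 and 3 members for the controls and 8, 4 and 11 for mutant samples 1, 2 and 3, with 124 to 170 of all 10069 genes higher.

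Without regard to a test, 15 members had all 3 mutant values above all 3 control values (34.1%, against 13.7% of all genes tested), and 2 had them all below (4.55%, against 13.5%). The 15 were the trypsins *thetaTry*, *alphaTry*, *epsilonTry*, *betaTry* and *iotaTry*, the maltases *Mal-A1*, *Mal-A6*, *Mal-A7*, *Mal-A8* and *Mal-B2*, the Jonah proteases *Jon65Ai*, *Jon99Fi* and *Jon99Fii*, and the lysozyme genes *LysC* and *LysD*. The 2 were *Jon74E* and *Mal-A5*. The median log2 fold change was 0.22 over the members and 0.01 over all genes tested, with 32 members above 0 and 12 below. By family, the median was 0.57 for maltases A, 0.51 for lysozymes, 0.47 for trypsins, 0.17 for Jonah proteases, −0.06 for maltases B and −0.24 for amylases.

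**Figure D2:**
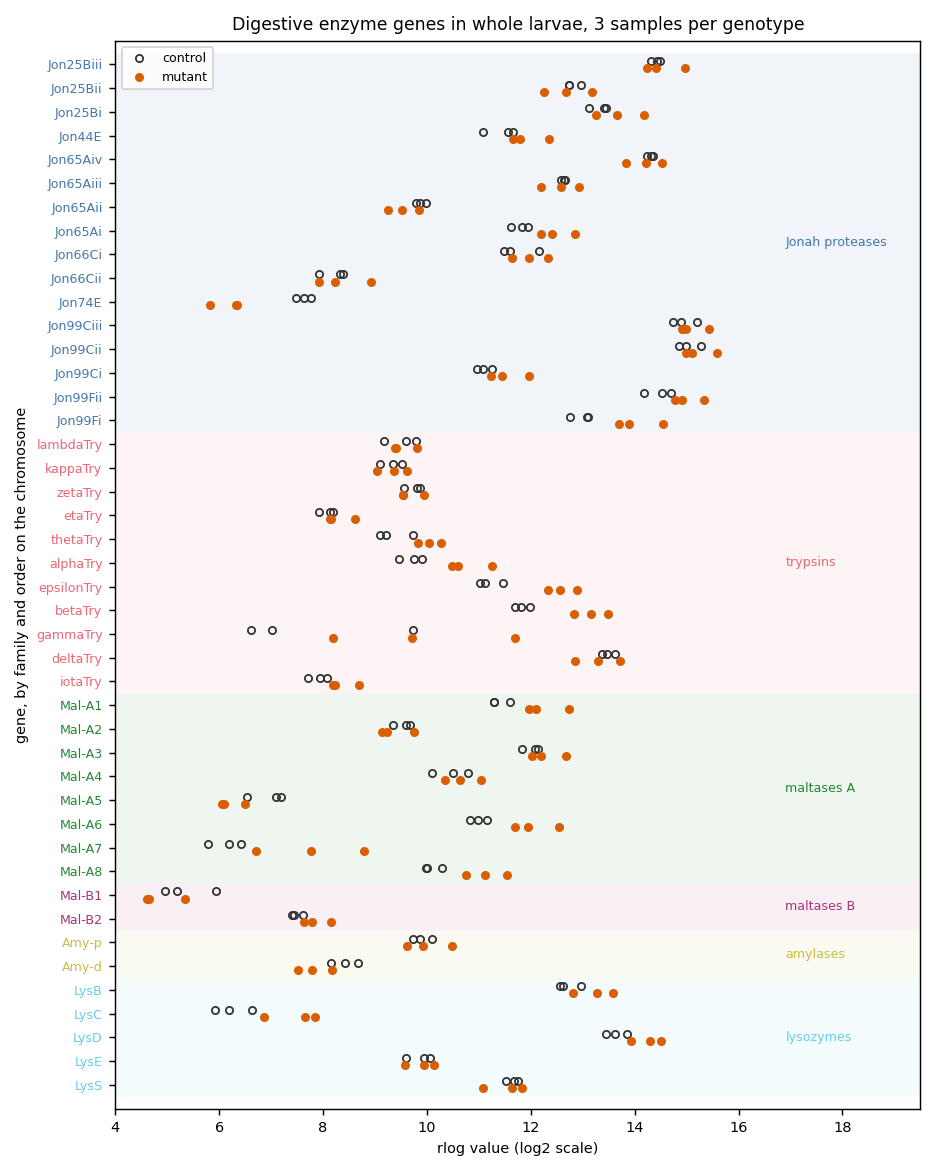
rlog values (log2 scale, horizontal axis) of the 44 members in whole larvae, with open circles for 3 control samples and filled circles for 3 mutant samples. Rows are genes, shaded by family and in chromosome order. Mutant and control circles are apart for *epsilonTry*, *betaTry*, *alphaTry*, *Mal-A6*, *Mal-A8* and *Jon74E*, and overlap for most Jonah proteases.

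The mutant samples differed from each other more than the control samples did. Mutant sample 1 was the highest of the 3 mutants for 42 of the 44 members (95.5%, against 44.1% of all genes), and mutant sample 3 was the lowest for 37 (84.1%, against 33.7%). Relative to the control mean of each gene, the median member deviated by 0.63 in mutant sample 1, by 0.16 in mutant sample 2 and by −0.04 in mutant sample 3. The control samples deviated by 0.06, −0.15 and 0.05. The median SD over the members was 0.20 in controls and 0.35 in mutants, against 0.13 and 0.16 over all genes. Without mutant sample 1, the median log2 fold change of the members was 0.06, with 26 above 0 and 18 below. Without mutant sample 2 it was 0.27, with 31 above 0 and 13 below, and without mutant sample 3 it was 0.39. The upward shift of the median member thus rested mostly on mutant sample 1. Members above all controls numbered 38 in mutant sample 1 (86.4%, against 36.4% of all genes), 20 in sample 2 (45.5%, against 27.5%) and 16 in sample 3 (36.4%, against 33.1%). In sample 3, 17 members lay below all controls (38.6%, against 29.9%).

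**Figure D3:**
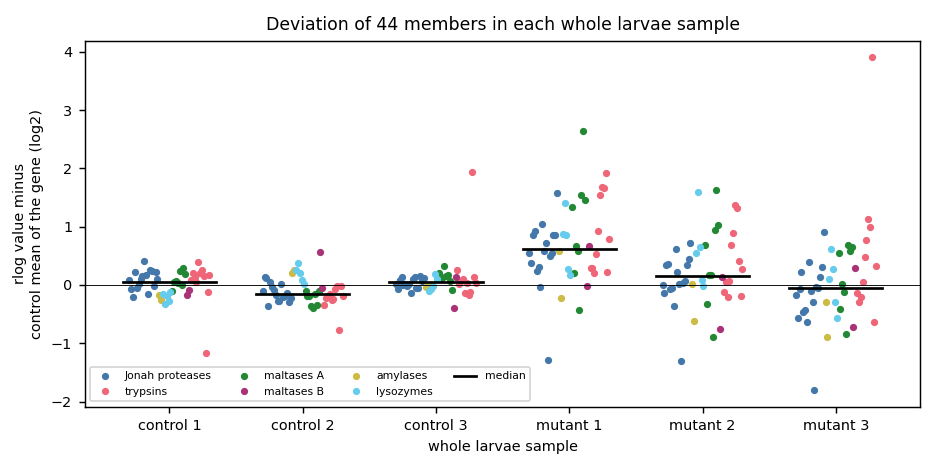
Difference of each member's rlog value from its control mean (log2 scale, vertical axis) in the 6 whole larvae samples, with points coloured by family and a bar for the median of 44 members. The median is 0.63 in mutant sample 1 and −0.04 in mutant sample 3, and *gammaTry* gives the highest point in mutant sample 3.

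Midgut markers differed less between the samples. Over the 11 genes of a midgut and peritrophic matrix list that passed the filter, of 12 found, the mean was 8.83, 8.78 and 8.92 in the control whole larvae and 8.75, 8.65 and 8.57 in the mutants. None of the 11 passed limma's test in whole larvae (0 higher and 0 lower, and 0 and 1 at an unadjusted p under 0.05), and their median log2 fold change was 0.10, although the mean over the 11 genes differed by −0.18 between mutants and controls. The mean was lower although 8 of the 11 were above 0 and 3 below, since log2 fold changes ran from −3.08 to 0.35. Digestive lipase genes gave a mean of 9.60, 9.22 and 8.46 in mutant samples 1, 2 and 3, so that sample 1 was again the highest. The mean over 8 muscle markers lay between 14.85 and 15.29 in all 6 whole larvae samples. Fat body markers separated the genotypes. Over the 5 of that list that passed the filter, the mean was 12.27, 12.33 and 13.13 in control whole larvae and 9.38, 9.17 and 8.63 in mutants. Of the 5, 4 had all mutants below all controls (80%, against 13.5% of all genes). Their log2 fold changes ran from −11.05 to −0.35, and 1 passed limma's test as lower (20%, against 2.56%). In dissected fat bodies the mean of the list was 11.61, 11.61 and 15.65 in controls and 9.09, 8.97 and 9.35 in mutants. The mean of the list was thus lower within the fat body too. Its log2 fold changes there ran from −10.45 to −0.02, so the markers differed widely. In fat bodies 2 of the 5 passed limma's test as lower (40%, against 11.2% of all genes). The mean of this list therefore cannot give the share of fat body tissue. The part of these marker levels in the shift was not tested.

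The trypsins with the highest log2 fold changes, apart from the variable *gammaTry*, lie beside each other in their cluster. The 11 genes lie within 20.7 kb of chromosome 2R, from 11336840 to 11357537 (BDGP6.54 assembly), in the order *lambdaTry*, *kappaTry*, *zetaTry*, *etaTry*, *thetaTry*, *alphaTry*, *epsilonTry*, *betaTry*, *gammaTry*, *deltaTry* and *iotaTry*. *epsilonTry* was 11.46, 11.13 and 11.02 in control whole larvae and 12.88, 12.57 and 12.33 in mutants. All mutant values were above all control values, and the log2 fold change was 1.39 (SE 0.29, adjusted p = 0.022), or 2.62-fold. The adjacent *betaTry* was 11.98, 11.81 and 11.70 in controls and 13.49, 13.16 and 12.83 in mutants. These groups were also apart, with a log2 fold change of 1.33 (SE 0.40), but the adjusted p was 0.132 in the fit of all 12 samples and 0.0022 in the fit of whole larvae alone. The adjacent *alphaTry*, chosen for mention after its values were seen, was 9.91, 9.46 and 9.75 in controls and 11.24, 10.59 and 10.47 in mutants, giving a log2 fold change of 1.06 (SE 0.33, adjusted p = 0.152).

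The trypsin genes at the start of the cluster, *lambdaTry*, *kappaTry*, *zetaTry* and *etaTry*, had log2 fold changes between −0.07 and 0.21, and none had groups that did not overlap. *deltaTry*, the most abundant trypsin, was 13.37, 13.47 and 13.62 in controls and 13.71, 13.29 and 12.85 in mutants. Its groups overlapped, with a log2 fold change of −0.20 (SE 0.83, adjusted p = 0.999). In the fit of whole larvae alone the SE was 0.20 (adjusted p = 0.642). *gammaTry* had the largest log2 fold change of the cluster at 2.08 and also the largest spread, since its controls were 6.62, 7.02 and 9.74 and its mutants 9.71, 8.20 and 11.70 (adjusted p = 0.548). *gammaTry* and *deltaTry* are near-identical copies, which can share reads, and the sample with the highest *gammaTry* value, mutant sample 3, had the lowest *deltaTry* value. Summed on the linear scale, the pair was 13.53 in controls (SD 0.17) and 13.51 in mutants (SD 0.26). The genes *CG30025* and *CG30031*, which lie between them, are further similar copies. The sum of all 4 was 14.06 in controls (SD 0.11) and 13.90 in mutants (SD 0.39), so the difference of *gammaTry* is uncertain.

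**Figure D4:**
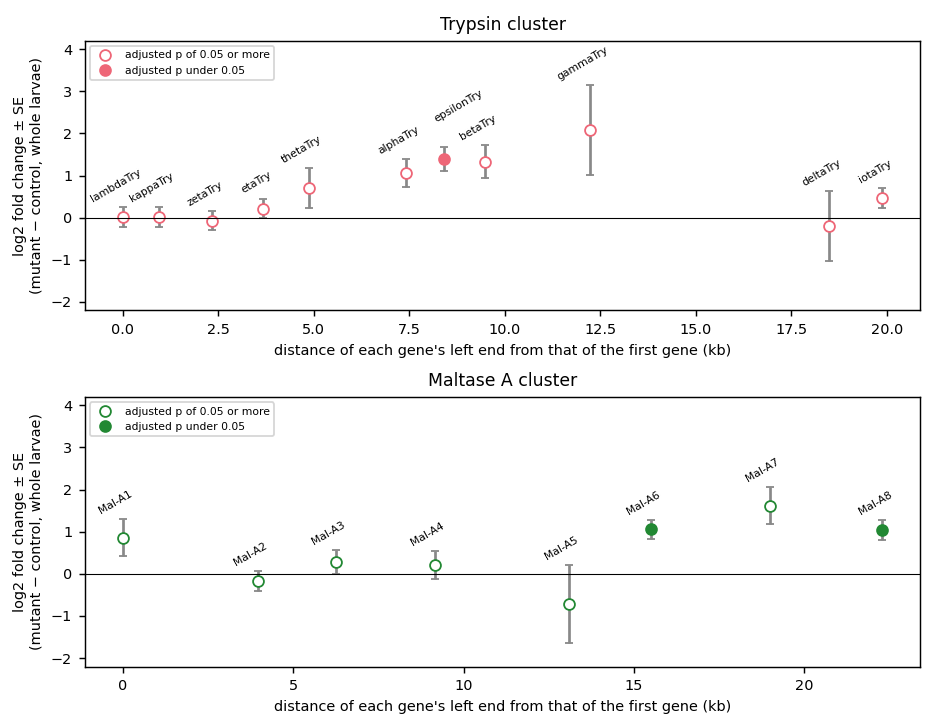
log2 fold change of mutant against control whole larvae (vertical axis, bars for the SE of the fit with 3 samples per group) by distance in kb from the left end of the first gene, for the trypsin cluster (top) and the maltase A cluster (bottom). Filled points passed the adjusted p of 0.05. In the trypsins the values lie near 0 at the left and at 1.06 to 1.39 for *alphaTry*, *epsilonTry* and *betaTry*, and in the maltases *Mal-A6*, *Mal-A7* and *Mal-A8* stand at 1.05 to 1.62.

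Among the maltases, 3 adjacent genes had the highest log2 fold changes. The 8 maltases A lie within 24.3 kb of chromosome 2R, from 8449664 to 8473961. *Mal-A6* was 10.99, 10.83 and 11.16 in control whole larvae and 12.54, 11.94 and 11.69 in mutants. Its groups were apart, with a log2 fold change of 1.06 (SE 0.23, adjusted p = 0.029). *Mal-A8* was 10.29, 9.99 and 10.01 in controls and 11.55, 11.13 and 10.75 in mutants. It was also apart, with a log2 fold change of 1.05 (SE 0.23, adjusted p = 0.035). *Mal-A7*, which lies between them and was chosen for mention after its values were seen, was 6.42, 5.78 and 6.19 in controls and 8.78, 7.76 and 6.71 in mutants. The groups were apart and the log2 fold change was 1.62, but the mutants were far apart from each other (SE 0.44, adjusted p = 0.088).

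The more abundant maltase genes, *Mal-A3* and *Mal-A1*, did not pass the test in the fit of all samples. *Mal-A3* was 12.08, 11.84 and 12.14 in controls and 12.68, 12.20 and 12.03 in mutants (log2 fold change 0.28, SE 0.28, adjusted p = 0.891). *Mal-A1* was 11.29, 11.30 and 11.61 in controls and 12.73, 12.09 and 11.96 in mutants. Its groups did not overlap, and its log2 fold change of 0.86 (SE 0.43) had an adjusted p of 0.534, or 0.043 in the fit of whole larvae alone. *Mal-A5*, chosen for mention after its values were seen, was the maltase with all mutants below all controls, at 7.19, 6.54 and 7.09 in controls and 6.50, 6.05 and 6.10 in mutants, with a difference of −0.72 on the log2 scale (adjusted p = 0.945). The B maltases did not pass the test in whole larvae. *Mal-B1* was 5.19, 5.93 and 4.96 in controls and 5.35, 4.61 and 4.65 in mutants, with overlapping groups (log2 fold change −0.49, SE 0.31, adjusted p = 0.700). *Mal-B2* was 7.41, 7.44 and 7.62 in controls and 8.15, 7.63 and 7.78 in mutants, which were just apart (log2 fold change 0.37, SE 0.14, adjusted p = 0.284).

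The Jonah proteases, the most abundant family, had log2 fold changes in whole larvae from −1.46 to 1.07. Of the 16 genes, 12 had overlapping groups, 3 had all mutants above all controls (18.8%, against 13.7% of all genes) and 1 had them below (6.25%, against 13.5%). *Jon99Cii* was 15.27, 14.85 and 14.99 in controls and 15.58, 15.10 and 14.99 in mutants. The log2 fold change was 0.19 (SE 0.78, adjusted p = 0.999). *Jon99Ciii* was 15.19, 14.74 and 14.89 in controls and 15.43, 14.98 and 14.91 in mutants, giving a log2 fold change of 0.16 (SE 0.57, adjusted p = 0.999). These SEs pool the spread in fat bodies, and in the fit of whole larvae alone they were 0.18 and 0.17 (adjusted p = 0.630 and 0.658).

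*Jon74E* was the Jonah protease that passed the test in whole larvae, and it differed in opposite directions in the 2 tissues. This Jonah protease gene lies on chromosome 3L from 17548077 to 17549127, and *ERR* lies on the same arm from 8183361 to 8186671. In whole larvae it was 7.47, 7.63 and 7.76 in controls and 6.34, 6.32 and 5.82 in mutants. All mutants were lower, and the log2 fold change was −1.46 (SE 0.32, adjusted p = 0.031). In the fit of all 12 samples this call was lost when any 1 of the 6 whole larvae samples was left out (adjusted p from 0.0705 to 0.139) and with quantile normalization. In the fit of whole larvae alone it passed in all 6 leave-one-out fits (adjusted p from 0.00264 to 0.0108). In fat bodies it was 4.56, 3.20 and 3.85 in controls and 6.18, 5.87 and 6.40 in mutants. All mutants were higher, and the log2 fold change was 2.28 (SE 0.32, adjusted p = 0.00045), which also passed the test against a log2 fold change of 1 (adjusted p = 0.038; 1.76% of all genes passed it as higher, and 0 members were lower, as were 1.42% of all genes). The call past a log2 fold change of 1 was lost in 13 of 19 alternatives, among them those without control fat body sample 6 or 7 and with each tissue fitted alone. Without control fat body sample 7, the log2 fold change in fat bodies was 2.27 (adjusted p = 0.00168). In mutants the levels in the 2 tissues were 6.16 in whole larvae and 6.15 in fat bodies, whereas in controls they were 7.62 and 3.87. The difference between the 2 changes, the interaction of genotype and tissue, was 3.74 (SE 0.45, adjusted p = 0.00054). Over all genes tested, 5 were higher in mutant fat bodies and lower in mutant whole larvae at this threshold (0.0497%), of which *Jon74E* was 1, and 1 gene had the reverse (0.00993%).

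**Figure D5:**
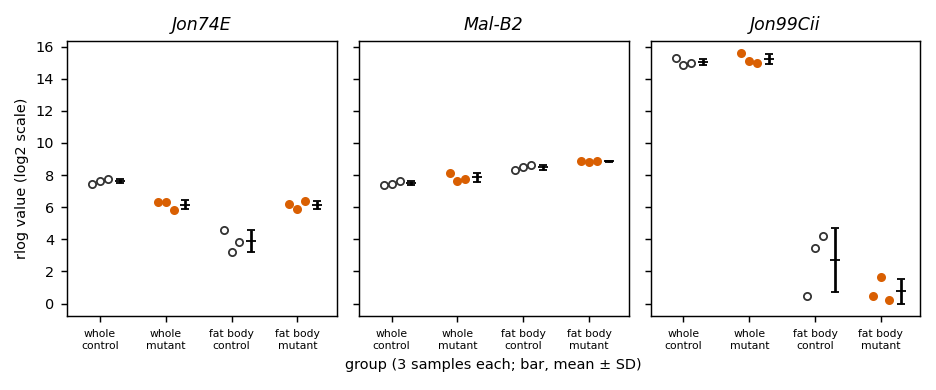
rlog values (log2 scale, vertical axis) of *Jon74E*, *Mal-B2* and *Jon99Cii* in the 4 groups of 3 samples, with open circles for controls, filled circles for mutants, and a bar for mean ± SD. *Jon74E* falls in mutant whole larvae and rises in mutant fat bodies, *Mal-B2* lies between 8.31 and 8.88 in fat bodies, and *Jon99Cii* lies between 14.85 and 15.58 in whole larvae and between 0.20 and 4.22 in fat bodies.

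The 2 amylase genes lie within 7.73 kb of chromosome 2R and are near-identical copies, so their separate values are uncertain. *Amy-p* was 9.73, 10.11 and 9.86 in control whole larvae and 10.49, 9.92 and 9.61 in mutants. Its groups overlapped (log2 fold change 0.11, SE 0.40, adjusted p = 0.999). *Amy-d* was 8.15, 8.67 and 8.42 in controls and 8.18, 7.79 and 7.52 in mutants. Its groups overlapped by 1 sample each (log2 fold change −0.58, SE 0.38, adjusted p = 0.728). In the fit of whole larvae alone the SE of *Amy-d* was 0.19 (adjusted p = 0.143). Summed on the linear scale, the amylases were 10.34 in controls (SD 0.21) and 10.30 in mutants (SD 0.42).

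The lysozyme genes lie within 33.5 kb of chromosome 3L, and *LysB*, *LysC*, *LysD* and *LysE* are similar copies. *LysD* was 13.46, 13.86 and 13.63 in control whole larvae and 14.51, 14.30 and 13.92 in mutants. The mutants were just above the controls, with a log2 fold change of 0.60 (SE 0.48, adjusted p = 0.819). In the fit of whole larvae alone the SE was 0.17 (adjusted p = 0.083). *LysB* was 12.57, 12.97 and 12.61 in controls and 13.59, 13.27 and 12.81 in mutants, with overlapping groups (log2 fold change 0.51, SE 0.37, adjusted p = 0.779). *LysC*, annotated as a pseudogene and overlapping *LysD* by a few bases on the other strand, had a log2 fold change of 1.21 (SE 0.31, adjusted p = 0.068) and can share reads with its neighbours. Summed, the 4 copies were 14.33 in controls (SD 0.20) and 14.88 in mutants (SD 0.33).

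Few members were measurable in fat bodies. Of the 46 genes, between 2 and 5 reached the log2 of 10 (3.32) in any fat body sample, and 39 had every fat body value under it. The 5 in control sample 7 were *Jon65Aiv*, *Jon74E*, *Jon99Cii*, *Mal-B2* and *deltaTry*. For 14 members with every fat body value under 0.4, all control values were above all mutant values, and their log2 fold changes all lay from −0.14 to −0.12. In all, 24 of the 44 members had mutants below controls without overlap (54.5%, against 25.8% of all genes tested), all 24 with every fat body value under the log2 of 10, and these are not read as changes. The 2 members with mutants above controls without overlap were *Jon74E* and *Mal-B2* (4.55%, against 14.2%). As 42 of the 44 passed the filter through whole larvae alone, no share of the members in fat bodies is read as a result.

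*Mal-B2* was the only family member at or above the log2 of 10 in every fat body sample. It was 8.31, 8.52 and 8.61 in control fat bodies and 8.86, 8.84 and 8.88 in mutants. The mutants were all higher, with a log2 fold change of 0.38 (SE 0.14, adjusted p = 0.071), and the interaction with tissue was 0.02. By the threshold, 1 member was higher in mutant fat bodies, *Jon74E* (11.1% of all genes were higher), and 1 was lower, *Jon99Fii* (11.2% of all genes were lower). *Jon99Fii* was 0.38, 2.74 and 3.18 in controls and 0.37, 0.25 and 0.12 in mutants. Control sample 5 lay beside the mutants, all values were under the log2 of 10, and the log2 fold change of −1.85 (SE 0.56, adjusted p = 0.038) lost the threshold in most alternatives (−2.71 and adjusted p = 2.17e-05 without control sample 5, −1.31 and adjusted p = 0.111 without control sample 7, −1.53 and 0.120 without control sample 6).

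The change differed between tissues for 4 members. *Jon74E* was higher in the interaction, against 5.86% of all genes, and *epsilonTry* (−1.87, adjusted p = 0.014), *Mal-A6* (−1.20, adjusted p = 0.040) and *Mal-A8* (−1.18, adjusted p = 0.047) were lower, against 4.39%. The fat body values of the last 3 genes were at most 1.07. Their interaction set a change in whole larvae against values at the floor of fat bodies.

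Of the other digestive genes, 1 protease and 1 lipase passed the test in whole larvae. The lists of these genes were chosen with earlier results of these data known, so their shares are not read as a result. Of 8 other digestive proteases tested, 0 were higher and 1 was lower (12.5%, against 2.56% of all genes). The lower gene was *Bace*, which encodes an aspartic protease of the gut, at 5.90, 4.22 and 4.54 in controls and 2.75, 3.15 and 2.23 in mutants (log2 fold change −2.17, SE 0.41, adjusted p = 0.013). Of 7 digestive lipases, 1 was higher (14.3%, against 0.725% of all genes), *CG6296*, at 7.50, 6.09 and 6.93 in controls and 11.19, 10.85 and 10.71 in mutants. Its groups were far apart, with a log2 fold change of 4.08 (SE 0.33, adjusted p = 4.3e-05). Of 10 other carbohydrate-digesting enzymes and 6 other lysozymes, none passed limma's test (0 higher and 0 lower in each, and 0 and 1 gene, lower, at an unadjusted p under 0.05), with medians of −0.19 and 0.08.

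Of 10 regulators known to act on digestive genes, none passed limma's test in whole larvae (2 were higher at an unadjusted p under 0.05), and 4 were higher (40%, against 11.1% of all genes) and 2 lower (20%, against 11.2%) in mutant fat bodies. The higher genes were *sug* (sugarbabe), *daw* (dawdle), *bigmax* and *Smox*, whose roles are given above. *sug* was 8.72, 8.78 and 8.29 in control fat bodies and 10.27, 10.21 and 10.04 in mutants (log2 fold change 1.58, SE 0.25, adjusted p = 0.0012). *daw* had a log2 fold change of 1.13 (SE 0.29, adjusted p = 0.016), *bigmax* of 0.90 (SE 0.17, adjusted p = 0.0032) and *Smox* of 0.35 (SE 0.09, adjusted p = 0.019). The lower genes were *foxo*, a transcription factor of insulin signalling, at −0.97 (SE 0.13, adjusted p = 0.00027), and *GATAe*, a gut transcription factor with low values in fat bodies, at −1.34 (SE 0.43, adjusted p = 0.047). *GATAe* passed the filter through whole larvae alone, so its difference in fat bodies is not read as a change. The list was chosen with earlier results of these data known, so these shares are not read as a result. In whole larvae, *sug* was 7.73, 7.84 and 7.58 in controls and 8.53, 8.62 and 7.52 in mutants, with mutant sample 3 under all controls (log2 fold change 0.51, adjusted p = 0.530). The log2 fold changes of *daw* and *bigmax* in whole larvae were 0.46 and 0.45 (adjusted p = 0.690 and 0.300). Of this set, only *foxo* had a genotype change that differed between the tissues by the test (interaction −1.08, adjusted p = 0.0037).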

How the data were processed

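The authors estimated transcript abundance with Salmon 1.10.2 from stranded poly-A libraries, summed it to genes, and deposited regularized log2 values made with DESeq2 1.42.0 (BDGP6.46 assembly). Counts and depth are unknown from these log2 values, so precision is that of the replicates alone. Genes whose mean reached 3.32 (log2 of 10) in 1 or more groups (10069) were fitted in limma 3.58.1 (R 4.3.3), with one mean per group, all 12 samples and a variance trend. Calls used a Benjamini-Hochberg adjusted p under 0.05 over all genes, for no change and, with treat, for a log2 fold change of 1. With 3 samples against 3, no two-sided exact permutation p can be under 0.1. Members and gene lists were chosen with earlier results of these data known. Genes with sample values were those called, the 2 most abundant of each family, all of families of 4 or fewer, and the extremes of the tissue difference. Levels per kb subtract the log2 of annotated exon length in kb. Positions come from Ensembl annotation of BDGP6.54. Alternatives were other filters, tissues fitted alone, array weights, no trend, centring, quantile normalization, a replicate block and leave-one-out fits. Chosen after seeing the data were leave-one-out fits and a filter within whole larvae alone, the member medians without 1 mutant sample, and sums of near-identical copies on the linear scale. Promoter motifs and protein identity were not analysed here.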

Additional observations from a re-analysis of the deposited data

Results flagged for a closer look

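The change between genotypes differed between tissues, by the test of the interaction (fat body change minus whole larvae change), for 4 members: *Jon74E* (3.74), *Mal-A6* (−1.20), *Mal-A8* (−1.18) and *epsilonTry* (−1.87). Of the other digestive and regulatory genes listed, it differed for *Bace* (2.06), *CG6296* (−4.21) and *foxo* (−1.08). Except for *Jon74E* and *foxo*, these genes lay near the floor of the fat body values.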

How the results depend on the processing

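Counts of members depended on the fit. Members higher in mutant whole larvae, 3 in the fit of all samples, were 8 with each tissue fitted alone (also with the filter within whole larvae, chosen after seeing the data), 7 with array weights and 1 with quantile normalization, where 0 were lower. All genes higher and lower, 73 and 258, were 211 and 499 with each tissue alone (210 and 498 with the filter within whole larvae), 302 and 653 with array weights, and 124 higher with quantile normalization. Leaving out 1 sample gave 0 to 4 members higher and 0 to 1 lower, and 41 to 111 genes higher and 180 to 325 lower. Leaving it out of whole larvae fitted alone, an alternative chosen after seeing the data, gave 3 to 11 and 1 to 2 members, and 124 to 170 and 350 to 514 genes.

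Over all genes, the replicate numbers of whole larvae did not pair the samples (correlations of deviations −0.02, −0.05 and −0.13). Over the 44 members and *LysRS* these were 0.44, 0.54 and 0.82. Control sample 1 correlated more with mutant sample 2 (0.53) than with its own number, while the other unmatched pairs lay between −0.84 and 0.08. Whether the members pair by number was not tested. The replicate block gave 10 members higher and 1 lower, and 175 and 430 genes.

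In fat bodies, members lower numbered 0 without a filter, with each tissue alone, with array weights and without the trend, 2 with quantile normalization, and 0 to 4 without 1 sample, and members higher 1 to 3. Genes higher and lower there were 623 and 634 with each tissue alone. Past a log2 fold change of 1, members higher were 0 without a filter, with each tissue alone, array weights or quantile normalization, and 0 to 1 without 1 sample, with 0 to 2 lower. Without a filter, 2 members were lower in control whole larvae than fat bodies, and the lysozyme median in whole larvae was 0.0201. The lysozyme median in fat bodies was −0.90 to −0.14 without 1 sample. Members with a lower interaction numbered 1 with quantile normalization and 1 to 5 without 1 sample, and those higher 1 to 2. The interaction of *Mal-B2* was −0.0286 when centred and −0.0430 with quantile normalization, and −0.10 to 0.17 without 1 sample. *Amy-p* was −0.13 to 0.31 and *deltaTry* −0.412 to 0.0172 in whole larvae. *Jon74E* passed in 19 of 19 alternatives in fat bodies and 18 of 18 for the interaction. In whole larvae *epsilonTry* and *Jon74E* passed in 20 of 27, and *Mal-A6* and *Mal-A8* in 18 of 27. These 27 include the fits of whole larvae alone that were chosen after seeing the data. *Jon74E* passed in 6 of 6 leave-one-out fits of that kind and in 0 of 6 that left a whole larvae sample out of the fit of all samples. The interactions of *epsilonTry*, *Mal-A6* and *Mal-A8* passed in 17, 8 and 7 of 18. The causes were not tested. Depth is unknown, so counting error could not be given.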
